A study of Canis lupus familiaris with 8 samples.

Results

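Collagen genes were followed in RNA sequencing of the adrenal cortex and the pituitary of adult Beagles and Chinese Field Dogs. Every row whose gene symbol reads COL, a number, A and a number was taken, which gave 43 collagen genes of 24580 genes. Chains were grouped from textbook knowledge into 11 fibrillar, 9 basement membrane, 10 fibril-associated, 4 transmembrane, 4 beaded filament, 3 short-chain network and 2 other chains. COL6A2 matched no row by that rule and is not analysed here. There were 8 libraries, 1 for each combination of tissue, breed and exposure. The exposed dogs had chronic stress, and the comparison dogs carry the label non-disposal, read here as unexposed. No group carries a transgene, drug or engineered allele in the labels. The labels do not say whether a library holds 1 dog or a pool, whether the 2 glands were taken from 1 set of dogs, or what the stressor was. The extraction note speaks of spleen, while source, tissue and title give adrenal cortex and pituitary.

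Collagens are the main structural proteins of the extracellular matrix, and each molecule is built from chains wound into a rope-like helix. Fibrillar chains form the load-bearing fibres of connective tissue, basement membrane chains form the sheets under epithelia and around vessels, fibril-associated chains sit on the fibres, and transmembrane chains stay anchored in the cell surface. In endocrine glands, collagen is made mostly by the cells of the capsule, septa and vessel walls, and the glands are dense with capillaries whose walls hold basement membrane collagen.

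Levels are FPKM, fragments normalised to gene length and sequencing depth, so that chains can be compared within a library. Values of 4 libraries of a tissue are given throughout in the order unexposed Beagle, stressed Beagle, unexposed Chinese Field Dog and stressed Chinese Field Dog. Libraries held 14327357 to 18712035 recovered reads, of which 26979 to 49011 were collagen reads, or 0.166% to 0.311%. Summed FPKM over 8 adrenal cortex markers was 22439 to 27635 in the adrenal cortex and 44.5 to 76.5 in the pituitary, low but not 0. Among them MC2R, the corticotropin receptor, was at 88.9, 97.4, 96.4 and 98.1 FPKM in the adrenal cortex and 0 in all 4 pituitaries. All 9 tested pituitary markers of 10 matched were higher in the pituitary. Adrenal libraries also held medulla markers, with summed FPKM of 5603, 4714, 3473 and 3192. The same 8 markers summed to 1538, 1334, 1686 and 1438 FPKM in the pituitary, so their sum is not particular to the medulla. In the tissue comparison described below, 7 of the 8 were called lower and 0 higher in the pituitary, where 31% of all tested genes were called lower. One library stood apart: the library labelled stressed Chinese Field Dog pituitary had a summed level of 641 FPKM over 7 forebrain neuron markers, against 2.38 to 4.62 in the other pituitaries, and 634 FPKM over 8 astrocyte and oligodendrocyte markers, against 36.9 to 111. The summed level, the class shares and the tissue differences are given with and without this library. Comparisons of 2 libraries that include it have no value without it.

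Whether the collagen level overlapped between the glands depended on the scale and on 1 library, and different chains led it in each gland. Summed FPKM was 493, 476, 405 and 375 in the adrenal cortex and 483, 549, 507 and 340 in the pituitary, so the ranges overlapped with all libraries and also without the stressed Chinese Field Dog pituitary. As a share of all reads, collagen held 0.166% to 0.234% in the adrenal cortex, 0.296% to 0.311% in the other 3 pituitaries and 0.184% in that library. As a share of all FPKM it held 0.0220% to 0.0368%, 0.0511% to 0.0577% and 0.0313%. Both shares thus overlapped with that library and lay above every adrenal library without it. Fibrillar chains made up 47.8% ± 1.9 (SD, n = 4) of collagen FPKM in the adrenal cortex and 54.9% ± 3.1 in the pituitary, the largest class in all 8 libraries. Basement membrane chains came next, with 22.3% ± 1.28 and 18.1% ± 0.908. Fibril-associated chains held 14.0% ± 1.37 and 14.6% ± 1.19, with overlapping ranges. By reads, which count long genes more, the fibril-associated share was 15.4% to 19.1% in the adrenal cortex and 11.0% to 13.5% in the pituitary, without overlap, while the basement membrane share was 19.0% to 21.4% and 18.2% to 19.2%, with overlap. Beaded filament chains held 9.93% ± 0.683 of adrenal and 3.77% ± 0.39 of pituitary collagen. COL6A2, of this class, matched no row, so its level is missing from this share and from the collagen total. Transmembrane chains held 1.32% ± 0.238 in the adrenal cortex and 5.39%, 9.29%, 8.24% and 3.23% in the 4 pituitaries, all above every adrenal library. Over the 3 pituitaries without forebrain markers, the FPKM shares were 53.7% ± 2.32 (SD, n = 3) fibrillar, 18.1% ± 1.11 basement membrane, 14.9% ± 1.24 fibril-associated, 3.75% ± 0.476 beaded filament and 7.64% ± 2.02 transmembrane. The shares carry no test.

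**Figure D1:**
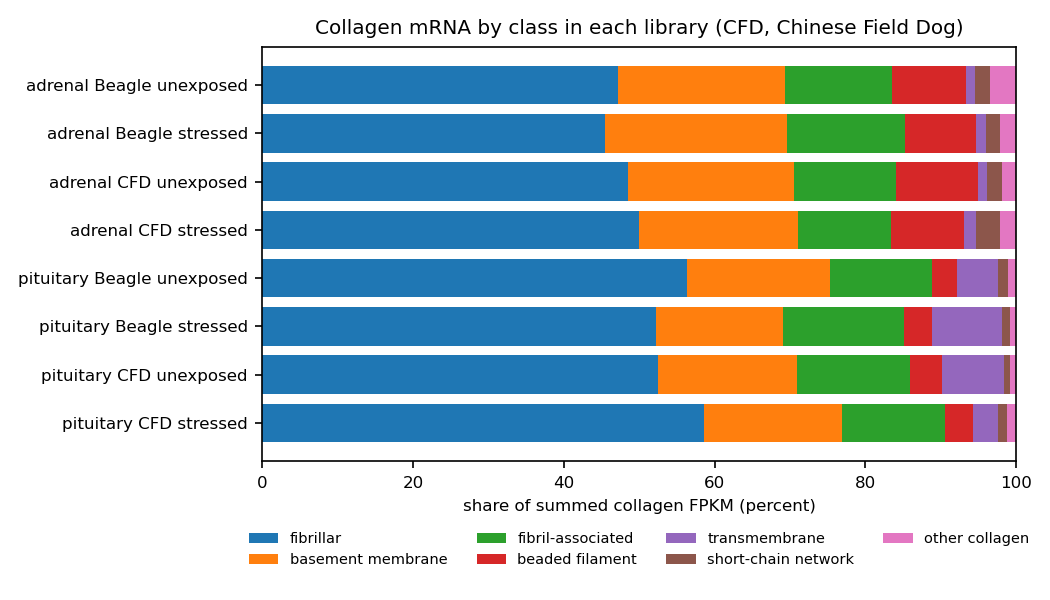
Share of summed collagen FPKM in percent (horizontal axis) held by each of 7 collagen classes (colours) in each of the 8 libraries (bars). Fibrillar chains lead in all 8 bars, and the transmembrane share is 1.11% to 1.65% in the adrenal bars and 3.23% to 9.29% in the pituitary bars.

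Each gland had its own leading chains, the same ones in every library of the tissue. COL1A2 was first and COL3A1 second in all 4 adrenal libraries, followed by COL4A1, COL6A1 and COL1A1 in varying order. In all 4 pituitaries, COL5A2 and COL11A1 held the first and second place, COL2A1 and COL16A1 the next places, and COL1A2 the fifth. These 5 chains per library summed to 45.7% to 56.6% of collagen FPKM.

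The tissue comparison set 4 pituitary against 4 adrenal libraries, with breeds and exposures standing in as replicates of a tissue, and differences are on the log2(FPKM + 1) scale, pituitary minus adrenal cortex, with limma's p adjusted over all 14806 genes tested. Of the 43 collagen genes, 38 reached the mean of 1 FPKM needed for testing. At an adjusted p below 0.05, 17 were higher and 14 lower in the pituitary, together 81.6% of the 38, where 60.5% of all tested genes were called, 29.5% higher and 31% lower. The median difference was 0.43 over the 38 chains and -0.001 over all tested genes. In 16 chains all 4 pituitaries lay above all 4 adrenals and in 14 below, where 58% of all genes had no overlap, 28.5% above and 29.5% below, and 8 chains overlapped. Without the library with forebrain markers, 32 collagens were called, 19 higher and 13 lower, where 64.1% of all genes were, 31.1% higher and 32.9% lower. Of the 31, 30 kept their call and sign without it and COL28A1 lost its call, while COL4A5 and COL13A1 gained one. The differences of the 30 moved by at most 0.41. In these bulk samples, fewer cells of a type and less RNA per cell cannot be told apart.

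**Figure D2:**
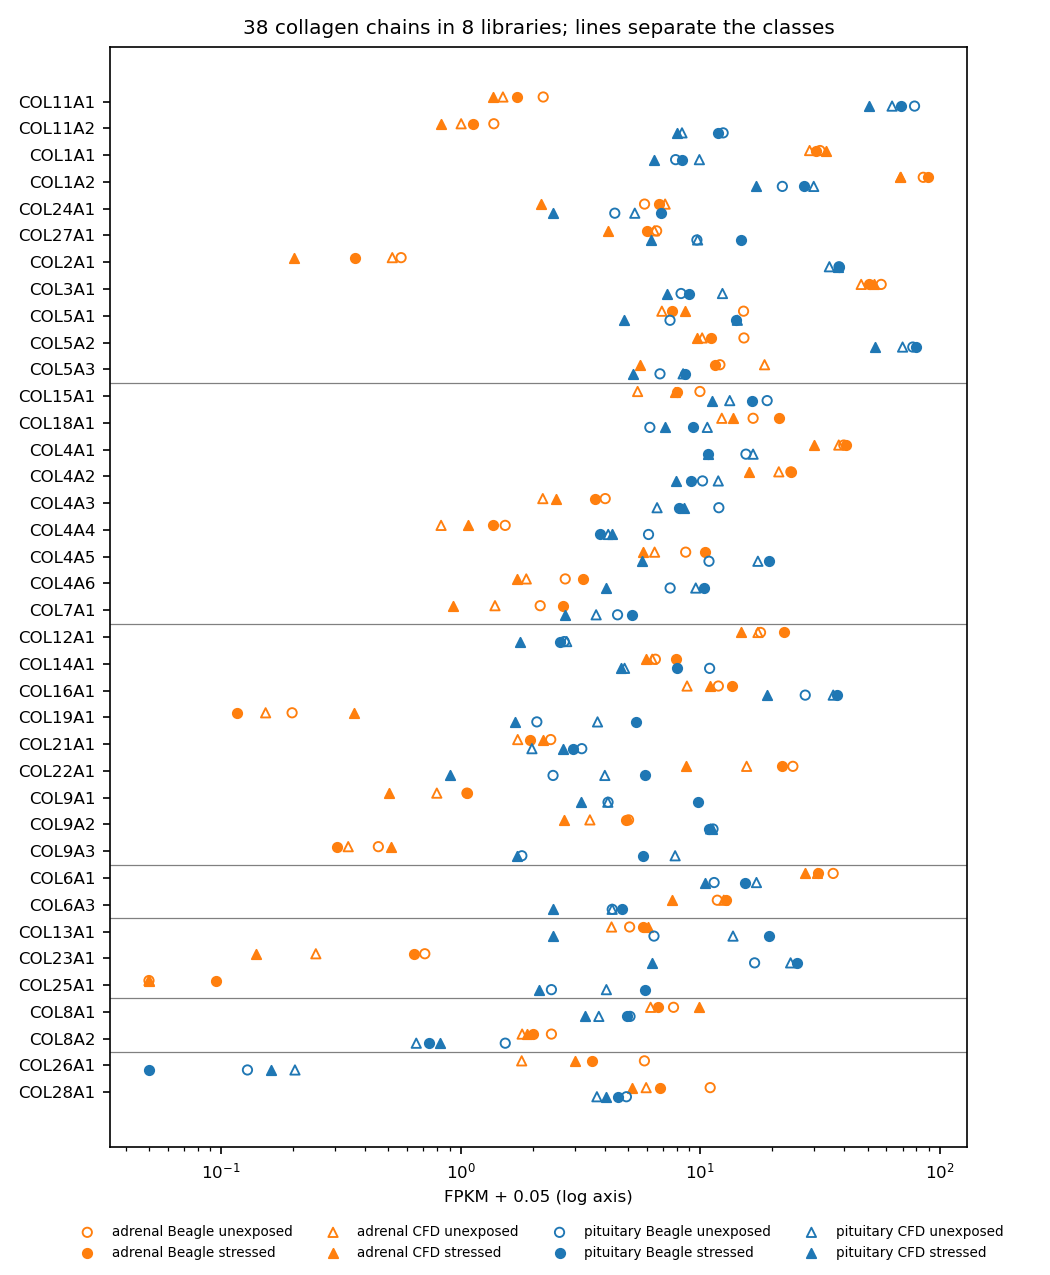
FPKM plus 0.05 on a log axis for each of the 38 tested collagen chains (rows, grouped by class), with adrenal libraries in orange and pituitary libraries in blue, circles for Beagle, triangles for Chinese Field Dog (CFD), filled for stressed. COL2A1, COL11A1 and COL5A2 show wide gaps with the pituitary higher, and COL3A1 and COL12A1 with the adrenal cortex higher.

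Among the fibrillar chains, the interstitial chains of types I and III were lower in the pituitary. COL1A1, a chain of type I collagen, the main fibre of most connective tissue, measured 31.6, 30.3, 28.6 and 33.5 FPKM in the adrenal cortex and 7.85, 8.32, 9.88 and 6.36 in the pituitary (log2 difference -1.83, SE 0.12, adjusted p = 6.34e-06). COL1A2, its partner chain, measured 85.4, 89.5, 68.8 and 68.6 FPKM, against 22.00, 27.1, 29.8 and 17.1 in the pituitary (log2 difference -1.68, SE 0.18, adjusted p = 7.29e-05). COL3A1, the type III chain of reticular fibres, measured 56.97, 50.9, 46.99 and 53.1 FPKM, against 8.28, 8.91, 12.3 and 7.25 in the pituitary (log2 difference -2.40, SE 0.15, adjusted p = 3.96e-06). For these 3 genes every pituitary library was below every adrenal library, and mean FPKM was 3.83, 3.25 and 5.65 times higher in the adrenal cortex. The COL1A1 to COL1A2 ratio of FPKM was 0.308 to 0.489 over the 8 libraries, so it overlapped between tissues while both levels differed.

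The chains best known from cartilage were high in the pituitary. COL2A1, the type II chain, measured 0.514, 0.311, 0.469 and 0.152 FPKM in the adrenal cortex, from 8 to 32 reads, and 37.98, 37.9, 34.6 and 37.5 in the pituitary, from 2013 to 2311 reads (log2 difference 4.81, SE 0.11, adjusted p = 3.4e-08). COL11A1, which shares fibrils with type II collagen, measured 2.16, 1.67, 1.45 and 1.32 FPKM, against 78.5, 68.7, 63.3 and 50.7 in the pituitary (log2 difference 4.64, SE 0.15, adjusted p = 1.72e-07). COL11A2, its partner, measured 1.33, 1.08, 0.955 and 0.777 FPKM, against 12.4, 11.8, 8.35 and 7.98 in the pituitary (log2 difference 2.44, SE 0.17, adjusted p = 7.69e-06). These 3 chains did not overlap between tissues, and COL2A1 and COL11A1 had the largest positive differences of the 38 on the log2(FPKM + 1) scale. The added 1 shrinks differences of chains near 0. By ratio of mean FPKM, pituitary to adrenal cortex, COL25A1 stood at 312, from 1 adrenal read, COL2A1 at 102, COL23A1 at 47.0 and COL11A1 at 39.5. COL2A1 varied little across the 4 pituitaries, 37.01 ± 1.62 FPKM (SD, n = 4), and it was as high in the stressed Chinese Field Dog pituitary as in the others. Markers of cartilage and bone went both ways, and their part in these differences was not tested. ACAN, aggrecan, measured 0.0397, 0.00891, 0.0315 and 0.0103 FPKM in the adrenal cortex and 0.406, 0.634, 0.401 and 1.41 in the pituitary, higher in every pituitary but below the mean of 1 FPKM needed for testing. COMP, a cartilage matrix protein, measured 20.2, 18.4, 13.4 and 7.89 FPKM, against 0.683, 0.792, 1.11 and 0.799 in the pituitary (log2 difference -3.04, adjusted p = 2.39e-05), and CHAD, chondroadherin, 4.56 ± 0.768 FPKM (SD, n = 4), against 0.376 ± 0.112 (log2 difference -2.01, adjusted p = 1.07e-05). IBSP and SP7, of bone, stayed at or under 0.0473 FPKM in the pituitary. Over the 9 matched markers of cartilage and bone, the summed level was 49.9, 53.96, 41.5 and 35.7 FPKM in the adrenal cortex and 22.1, 25.3, 22.5 and 21.8 in the pituitary, with BGLAP, osteocalcin, holding most of the pituitary sum and 0 of 3 tested members higher and 2 lower in the pituitary.

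The type V chains, which regulate the width of fibres, parted ways. COL5A2 measured 15.2, 11.02, 10.1 and 9.64 FPKM in the adrenal cortex and 77.2, 79.9, 69.99 and 53.7 in the pituitary (log2 difference 2.51, SE 0.17, adjusted p = 6.51e-06), with no overlap. COL5A1 measured 15.1, 7.59, 6.87 and 8.58 FPKM, against 7.44, 14.1, 14.3 and 4.78 in the pituitary, and did not pass (log2 difference 0.03, SE 0.36, adjusted p = 0.956). COL5A3 measured 12.05, 11.5, 18.5 and 5.54 FPKM, against 6.75, 8.57, 8.44 and 5.22 in the pituitary, and did not pass either (log2 difference -0.56, SE 0.31, adjusted p = 0.15). COL5A2 thus stood 6.10-fold above the adrenal cortex in mean FPKM, while the ranges of COL5A1 and COL5A3 overlapped between tissues. COL5A3 passed in 2 alternatives: without the stressed Chinese Field Dog adrenal cortex the difference was -0.86, adjusted p = 0.0123, and with breed and exposure as a block of all 8 libraries it was -0.56, adjusted p = 0.0427. Of the lesser fibrillar chains, COL27A1 measured 6.53, 5.93, 6.39 and 4.09 FPKM, against 9.65, 14.8, 9.71 and 6.18 in the pituitary (log2 difference 0.68, SE 0.24, adjusted p = 0.0354). COL24A1 measured 5.81, 6.71, 7.09 and 2.12 FPKM, against 4.35, 6.84, 5.29 and 2.39 in the pituitary (log2 difference -0.14, SE 0.36, adjusted p = 0.751). Both overlapped between tissues, COL27A1 passed narrowly, and its call was lost on leaving out any 1 of 6 libraries (adjusted p = 0.0525 to 0.0911), the exceptions being the pituitary of the stressed Chinese Field Dog and the adrenal cortex of the unexposed Beagle.

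COL3A1 and COL5A2 lie side by side in the dog genome and differed in opposite directions. In the deposited coordinates, on CanFam3.1, COL3A1 spans chromosome 36, 30487821 to 30526563, and COL5A2 spans chromosome 36, 30537638 to 30677658, with 11.1 kb and no gene between them. COL3A1 was lower by 2.40 and COL5A2 higher by 2.51 on the log2 scale in the pituitary, in the tests given above. COL19A1 and COL9A1, 8.6 kb apart on chromosome 12, were both higher in the pituitary, and COL4A1 and COL4A2, on chromosome 22, were both lower. The listed intervals of COL4A1 and COL4A2 are 108 kb apart. That of COL4A2 is shared by 4 genes, so the distance between the 2 genes themselves is not known from it. COL4A3 and COL4A4 are listed with 1 shared interval of 2 genes, and COL18A1 and COL6A1 with 1 of 10 genes. Some other chains share an interval with genes that are not collagens, such as COL27A1 in an interval of 4 genes. Reads near such overlapping models may be assigned less surely.

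**Figure D3:**
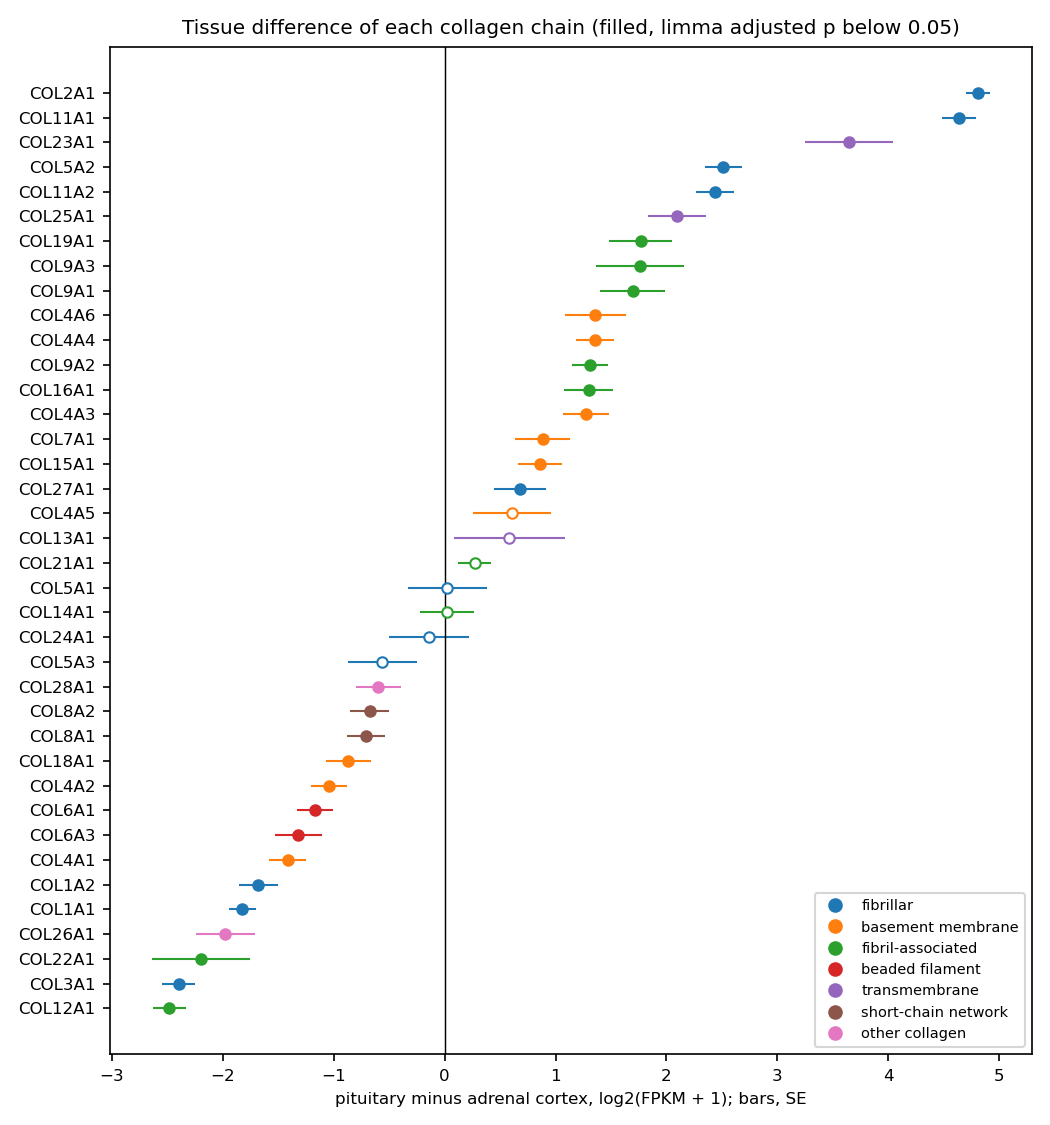
Difference between pituitary and adrenal cortex in log2(FPKM + 1) (horizontal axis) for the 38 tested chains, 4 libraries per tissue, with bars for the SE, colours for class and filled points for a limma adjusted p below 0.05. Differences run from -2.48 for COL12A1 to 4.81 for COL2A1, and each class with more than 3 tested chains has members on both sides of 0.

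Basement membrane chains split by pair. COL4A1 and COL4A2, which form the common type IV network of most basement membranes, were lower in the pituitary. COL4A1 measured 39.7, 40.4, 37.9 and 29.7 FPKM in the adrenal cortex and 15.5, 10.7, 16.6 and 10.7 in the pituitary (log2 difference -1.42, SE 0.17, adjusted p = 0.000146). COL4A2 measured 23.9, 23.9, 21.3 and 15.95 FPKM, against 10.2, 9.14, 11.9 and 7.91 in the pituitary (log2 difference -1.04, SE 0.16, adjusted p = 0.000565). COL4A3 and COL4A4, known from the filtering membrane of the kidney, went the other way. COL4A3 measured 3.97, 3.59, 2.15 and 2.45 FPKM, against 11.9, 8.14, 6.56 and 8.52 in the pituitary (log2 difference 1.27, SE 0.21, adjusted p = 0.000795). COL4A4 measured 1.49, 1.32, 0.779 and 1.03 FPKM, against 6.04, 3.78, 4.08 and 4.22 in the pituitary (log2 difference 1.36, SE 0.17, adjusted p = 0.000199). These 4 chains had no overlap between tissues. COL4A6, known from smooth muscle and epithelial basement membranes, measured 2.68, 3.18, 1.83 and 1.68 FPKM, against 7.45, 10.3, 9.54 and 4.01 in the pituitary (log2 difference 1.36, SE 0.27, adjusted p = 0.00271). Its partner COL4A5 measured 8.66, 10.4, 6.41 and 5.75 FPKM, against 10.8, 19.4, 17.4 and 5.69 in the pituitary, and did not pass (log2 difference 0.61, SE 0.35, adjusted p = 0.167). COL4A5 was high in the same pituitaries as COL4A6 and lowest in the stressed Chinese Field Dog, and without that library the difference was 0.93, adjusted p = 0.0117. The COL4A1 to COL4A2 ratio of FPKM was 1.66 to 1.86 in the adrenal cortex and 1.17 to 1.52 in the pituitary, and the COL4A5 to COL4A6 ratio was 3.22 to 3.50 and 1.42 to 1.88.

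The other basement membrane chains also differed in both directions. COL15A1, found just outside vessel and muscle basement membranes, measured 9.93, 7.93, 5.43 and 7.84 FPKM in the adrenal cortex and 19.00, 16.4, 13.2 and 11.1 in the pituitary (log2 difference 0.86, SE 0.20, adjusted p = 0.00586). COL18A1, the precursor of endostatin, measured 16.6, 21.3, 12.3 and 13.7 FPKM, against 6.12, 9.28, 10.7 and 7.09 in the pituitary (log2 difference -0.87, SE 0.21, adjusted p = 0.00631). COL7A1, which forms anchoring fibrils, measured 2.10, 2.62, 1.34 and 0.877 FPKM, against 4.47, 5.12, 3.63 and 2.67 in the pituitary (log2 difference 0.88, SE 0.24, adjusted p = 0.0133). COL15A1 and COL7A1 were thus higher and COL18A1 lower in the pituitary, each without overlap. In all, 5 of 9 basement membrane chains were higher and 3 lower.

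Among the fibril-associated chains, 5 of 9 tested were higher and 2 lower in the pituitary. COL12A1, which decorates type I fibrils, measured 17.8, 22.4, 17.4 and 14.7 FPKM in the adrenal cortex and 2.66, 2.55, 2.72 and 1.72 in the pituitary (log2 difference -2.48, SE 0.15, adjusted p = 3.96e-06). COL22A1, known from tissue junctions such as that of muscle and tendon, measured 24.3, 21.95, 15.6 and 8.72 FPKM, against 2.38, 5.81, 3.95 and 0.852 in the pituitary (log2 difference -2.20, SE 0.44, adjusted p = 0.00263). Both were lower in the pituitary without overlap, and COL22A1 ranged widely within each tissue. The type IX chains, which coat type II fibrils, were all higher in the pituitary. COL9A1 measured 1.01, 1.02, 0.746 and 0.454 FPKM, against 4.08, 9.73, 4.07 and 3.13 in the pituitary (log2 difference 1.70, SE 0.29, adjusted p = 0.00117). COL9A2 measured 4.98, 4.87, 3.42 and 2.64 FPKM, against 11.3, 10.9, 11.01 and 11.1 in the pituitary (log2 difference 1.31, SE 0.16, adjusted p = 0.000184). COL9A3 measured 0.404, 0.253, 0.289 and 0.461 FPKM, against 1.75, 5.71, 7.81 and 1.68 in the pituitary (log2 difference 1.76, SE 0.40, adjusted p = 0.00484). COL9A2 was nearly level across the pituitaries, while COL9A1 and COL9A3 were not.

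Of the remaining fibril-associated chains, COL16A1, a minor component of fibrils, measured 11.9, 13.5, 8.77 and 11.00 FPKM, against 27.4, 37.2, 35.9 and 18.9 in the pituitary (log2 difference 1.30, SE 0.22, adjusted p = 0.00103). COL19A1, a minor chain also known from the brain, measured 0.148, 0.0664, 0.103 and 0.308 FPKM, against 2.03, 5.35, 3.68 and 1.64 in the pituitary (log2 difference 1.77, SE 0.28, adjusted p = 0.00077). Both were higher in every pituitary. COL14A1, a relative of COL12A1, measured 6.46, 7.85, 6.26 and 5.87 FPKM, against 10.9, 7.98, 4.79 and 4.60 in the pituitary, and did not pass (log2 difference 0.02, SE 0.24, adjusted p = 0.953). COL21A1 ranged from 1.68 to 2.33 FPKM in the adrenal cortex and from 1.94 to 3.16 in the pituitary and did not pass (log2 difference 0.27, SE 0.15, adjusted p = 0.147).

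Of 3 tested transmembrane chains, 2 were higher in the pituitary and 0 lower. COL23A1, a cell surface collagen, measured 0.659, 0.592, 0.199 and 0.0893 FPKM in the adrenal cortex, from 3 to 23 reads, and 16.8, 25.4, 23.8 and 6.23 in the pituitary, from 242 to 1102 reads (log2 difference 3.65, SE 0.40, adjusted p = 9.08e-05). COL25A1, known as a component of amyloid plaques and a collagen of neurons, had 1 read in all 4 adrenal libraries together and 2.34, 5.83, 4.01 and 2.07 FPKM in the pituitary, from 46 to 141 reads (log2 difference 2.10, SE 0.26, adjusted p = 0.000191). COL13A1, known from the neuromuscular junction, measured 5.03, 5.70, 4.22 and 6.03 FPKM, against 6.37, 19.4, 13.7 and 2.39 in the pituitary, and did not pass (log2 difference 0.58, SE 0.50, adjusted p = 0.339). COL13A1 overlapped because the stressed Chinese Field Dog pituitary was below the adrenal libraries, and without it the difference was 1.07, adjusted p = 0.02. COL17A1, the hemidesmosome chain, stayed at or below 0.521 FPKM.

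Beaded filament, short-chain and other chains were all lower in the pituitary where tested, 6 of 6. COL6A1, a chain of the type VI microfilaments around cells, measured 35.9, 30.98, 30.9 and 27.4 FPKM in the adrenal cortex and 11.4, 15.4, 17.1 and 10.4 in the pituitary (log2 difference -1.17, SE 0.16, adjusted p = 0.000327). COL6A3, its larger partner, measured 11.7, 12.8, 12.5 and 7.61 FPKM, against 4.25, 4.67, 4.24 and 2.39 in the pituitary (log2 difference -1.32, SE 0.21, adjusted p = 0.000746). Neither overlapped between tissues. COL8A1, a chain of the network under vascular and corneal endothelium, measured 7.69, 6.63, 6.16 and 9.86 FPKM, against 5.05, 4.92, 3.73 and 3.24 in the pituitary (log2 difference -0.71, SE 0.17, adjusted p = 0.0068). COL8A2, its partner, measured 2.34, 1.96, 1.76 and 1.85 FPKM, against 1.49, 0.688, 0.603 and 0.773 in the pituitary (log2 difference -0.68, SE 0.18, adjusted p = 0.0105). Both type VIII chains were thus lower in the pituitary by less than 2-fold on this scale. COL26A1 measured 5.80, 3.49, 1.75 and 2.95 FPKM in the adrenal cortex and 0.0789, 0, 0.153 and 0.112 in the pituitary, from 0 to 6 reads (log2 difference -1.98, SE 0.26, adjusted p = 0.000279). COL28A1, a chain known from peripheral nerve, measured 10.97, 6.73, 5.90 and 5.14 FPKM, against 4.87, 4.48, 3.66 and 4.004 in the pituitary (log2 difference -0.60, SE 0.20, adjusted p = 0.0323). COL28A1 passed narrowly, and its call was lost without the stressed Beagle library of either tissue or without either Chinese Field Dog pituitary (adjusted p = 0.0564 to 0.0803). Beside the 38, COL6A5 (0.0631 to 0.926 FPKM), COL6A6 (0.0331 to 0.104), COL20A1 (0.151 to 0.914), COL10A1 (0.0643 to 0.110) and COL17A1 were below the filter, with 3 to 117 reads per library.

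Cell markers differed between the glands beside the collagens, and their part in the collagen differences was not tested. Their counts stand against the 29.5% of all tested genes called higher and the 31% called lower. Of 10 fibroblast markers, 8 were lower and 1, SFRP2, higher in the pituitary, with summed FPKM of 251, 223, 175 and 203 in the adrenal cortex and 90.8, 97.7, 83.4 and 77.3 in the pituitary. Of 13 endothelial markers, 11 were lower and 0 higher, with sums of 328, 382, 293 and 397 and 217, 190, 202 and 177 FPKM. Of 9 smooth muscle and pericyte markers, 5 were lower and 1 higher, with sums of 450, 422, 433 and 536 and 73.0, 66.5, 69.2 and 60.6 FPKM. Of 4 Schwann cell markers, 3 were lower and 0 higher, and of 4 tested adipocyte markers, 4 were lower. Of 4 tested leptomeningeal markers, 3 were higher and 1 lower, with sums of 64.7, 53.2, 56.6 and 56.4 and 209, 199, 281 and 175 FPKM.

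Genes that build, bind and remodel collagen differed in both directions, and their counts also stand against 29.5% of all genes called higher and 31% lower. The lists of chain modification and folding, of processing and crosslinking and of collagen receptors had shares near these, given how few genes they hold. Among 19 genes of chain modification and folding, 5 were higher and 6 lower, and the lowest p values belonged to P4HA3, a prolyl hydroxylase subunit, with 1.53 ± 0.236 FPKM (SD, n = 4) in the adrenal cortex and 8.53 ± 1.11 in the pituitary (log2 difference 1.91, adjusted p = 5.1e-06), and to SERPINH1, the collagen chaperone, with 166 ± 14.7 and 30.4 ± 7.35 FPKM (log2 difference -2.44, adjusted p = 1e-05). Among 12 tested processing and crosslinking genes, 3 were higher and 5 lower, led by PXDN, the peroxidasin that crosslinks type IV collagen (log2 difference -2.03, adjusted p = 1.34e-05), and LOXL4, a lysyl oxidase (log2 difference 1.65, adjusted p = 2.75e-05). Among 14 small leucine-rich and fibril partners, 1 was higher and 11 lower, led by THBS1, thrombospondin (log2 difference -3.27, adjusted p = 2.16e-07), and BGN, biglycan (log2 difference -2.01, adjusted p = 2.36e-07).

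Basement membrane partners gave 2 higher and 7 lower of 15, among them AGRN, agrin, with 70.8 ± 2.79 and 14.1 ± 2.14 FPKM (log2 difference -2.26, adjusted p = 9.51e-07). Of 7 tested collagen receptors, 2 were higher and 3 lower, led by ITGA11, an integrin for type I collagen (log2 difference -3.52, adjusted p = 1.55e-06), and ITGA1, an integrin for type IV collagen (log2 difference -1.29, adjusted p = 6.25e-06). Degradation genes and their inhibitors gave 2 higher and 6 lower of 12 tested, led by the inhibitors TIMP1 (log2 difference -2.72, adjusted p = 1.85e-06) and TIMP3 (log2 difference -1.52, adjusted p = 2.39e-05). TGF-beta ligands, receptors and targets gave 3 higher and 6 lower of 10, among them CTGF, a secreted matrix regulator (log2 difference -2.12, adjusted p = 7.86e-05).

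No collagen passed the threshold for stress or breed in limma. Within each tissue, the stress difference took the breeds as replicates and the breed difference took the exposures as replicates, from 1 model of all 8 libraries with 2 residual degrees of freedom. For stress, 0 of 38 collagens were called in the pituitary and 0 in the adrenal cortex, where 0.00675% of all tested genes were called in each. For breed, 0 were called in the pituitary, against 0.0135% of genes, and 0 in the adrenal cortex, against 0.027%. The difference of the stress effects between tissues called 0 collagens, against 0.00675% of genes, and that of the breed effects 0, against 0.0338%. The edgeR test called 0 collagens in all of these. At an unadjusted p below 0.05, limma gave 1 collagen for stress in the pituitary, 0 in the adrenal cortex, 3 for breed in the pituitary and 3 in the adrenal cortex, and 0 and 1 for the differences between tissues.

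The collagen with the lowest p was COL14A1, lower in the Chinese Field Dog pituitary in both exposures: 4.79 against 10.9 FPKM unexposed and 4.60 against 7.98 FPKM stressed. Its limma difference was -0.86 (SE 0.17), with an adjusted p = 0.502, while DESeq2 gave -0.98 with an adjusted p = 0.0097. Without the stressed Chinese Field Dog library, only the unexposed pair remains for this gene in the pituitary, with a difference of -1.04. COL11A1 (-0.37) and COL11A2 (-0.52) were also lower in that breed at an unadjusted p below 0.05, as were COL9A2 (-0.56), COL28A1 (-0.56) and COL7A1 (-0.68) in the adrenal cortex. For stress in the pituitary, COL4A1 was lower in both breeds (-0.54, adjusted p = 0.877). These pituitary differences of COL11A1, COL11A2 and COL4A1 also include the library with forebrain markers. Without it, only the unexposed breed pair remains for COL11A1 (63.3 against 78.5 FPKM) and COL11A2 (8.35 against 12.4). For COL4A1 only the Beagle stress pair remains (10.7 against 15.5 FPKM). In the authors' deposited table, 0 collagens had an FDR of 0.05 or less in any of 8 comparisons of 2 libraries, and the lowest FDR, 0.764, was that of COL13A1 between the stressed pituitaries. Few of all genes had such an FDR in the authors' deposited table. For stress in the adrenal cortex they were 0.0413% (Beagle) and 0.0345% (Chinese Field Dog), and in the pituitary 0% and 0.0965%. Between the breeds they were 0.0345% in the stressed and 0.041% in the unexposed adrenal cortex, and 0.142% and 0.0196% in the pituitary.

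Single pairs of libraries carry no test, and a gene was counted as 2-fold different at a log2(FPKM + 1) difference of at least 1. The 95% Clopper-Pearson intervals given with a pair are for the log2 ratio of scaled reads, without the added 1, and cover counting error only, so for low genes they can lie beyond the difference they follow. In the stressed Beagle pituitary against the unexposed, 6 of 37 collagens were 2-fold higher and 0 lower, where 2.34% of all genes were 2-fold different, 1.25% higher and 1.09% lower. They were COL13A1 (1.47, read-ratio interval 1.39 to 1.82), COL9A3 (1.29, read-ratio interval 1.24 to 2.18), COL9A1 (1.08, read-ratio interval 1.04 to 1.48), COL19A1 (1.07, read-ratio interval 1.10 to 1.70), COL25A1 (1.03, read-ratio interval 0.85 to 1.78) and COL22A1 (1.01, read-ratio interval 1.07 to 1.55). All 6 are fibril-associated or transmembrane chains. The main fibrillar chains of the pituitary hardly differed in this pair, with COL2A1 at -0.00, COL5A2 at 0.05 and COL11A1 at -0.19.

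In the Chinese Field Dog pituitary the same comparison ran the other way, and it rests on the library with forebrain markers. Of 36 collagens, 0 were 2-fold higher and 7 lower, where 9.55% of all genes were 2-fold different, 7.85% higher and 1.7% lower. They were COL13A1 (-2.11, read-ratio interval -2.87 to -2.18), COL23A1 (-1.78, read-ratio interval -2.15 to -1.74), COL9A3 (-1.72, read-ratio interval -2.71 to -1.76), COL4A5 (-1.46, read-ratio interval -1.72 to -1.46), COL22A1 (-1.42, read-ratio interval -2.69 to -1.92), COL5A1 (-1.40, read-ratio interval -1.71 to -1.42) and COL4A6 (-1.07, read-ratio interval -1.47 to -1.11). The median over collagens was -0.57, against -0.03 over all genes, and 30 of 36 lay below 0, where 53.4% of all genes did. COL2A1 stayed at 0.11 and COL9A2 at 0.02. Without this library there is no stress comparison for this breed.

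Set side by side, 22 of 36 collagens were higher with stress in the Beagle pituitary and lower with stress in the Chinese Field Dog pituitary, where 27.7% of all genes had that pair of signs. None was higher in both, where 22.0% of all genes were. Lower in both were 8, against 27.2% of all genes, and 6 had the opposite pattern, against 23.1%. COL13A1 (6.37, 19.4, 13.7 and 2.39 FPKM) and COL23A1 (16.8, 25.4, 23.8 and 6.23 FPKM) had their highest value in the stressed Beagle, then the unexposed Chinese Field Dog, the unexposed Beagle and the stressed Chinese Field Dog. Markers of the posterior and intermediate lobes, in lists written after values had been seen, had the same order of libraries in their sums, but not all of their members did. OXT, oxytocin, measured 20.99, 69.8, 55.7 and 12.5 FPKM, RAX, a transcription factor of the posterior lobe, 2.67, 6.28, 4.98 and 0.149, and PAX7, the factor of melanotroph cells, 4.93, 10.1, 10.00 and 1.33, all in that order. AVP, vasopressin, measured 20.6, 37.1, 39.2 and 21.4 FPKM, LHX2, a transcription factor, 4.40, 14.4, 14.9 and 7.45, and PCSK2, a prohormone convertase, 31.5, 60.4, 53.7 and 32.6, all lowest in the unexposed Beagle. SCN7A, a sodium channel, measured 2.83, 2.26, 1.93 and 3.47 FPKM, highest in the stressed Chinese Field Dog. DRD2, the dopamine receptor, measured 37.6, 40.2, 36.5 and 18.3 FPKM, and TBX19, a transcription factor of corticotroph and melanotroph cells, 142, 134, 129 and 76.7, both lowest in the stressed Chinese Field Dog. The 5 matched posterior lobe genes summed to 51.5, 130, 117 and 44.95 FPKM and the 4 melanotroph genes to 216, 245, 229 and 129, whose lowest library was also the stressed Chinese Field Dog. In the adrenal cortex the same lists summed to 28.4, 26.98, 22.9 and 23.5 and 6.63, 3.61, 3.60 and 2.33 FPKM. Other lists also shifted in the Chinese Field Dog stress pair, which includes the library with forebrain markers and where 53.4% of all genes lay below 0. Of 9 counted anterior pituitary markers, 9 were lower in that pair, and in the Beagle pair 5 were higher and 4 lower. Of 14 counted basement membrane partners, 11 were lower and 3 higher in that pair, and 9 lower and 5 higher in the Beagle pair. The part of all these lists in the collagen pattern was not tested.

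**Figure D4:**
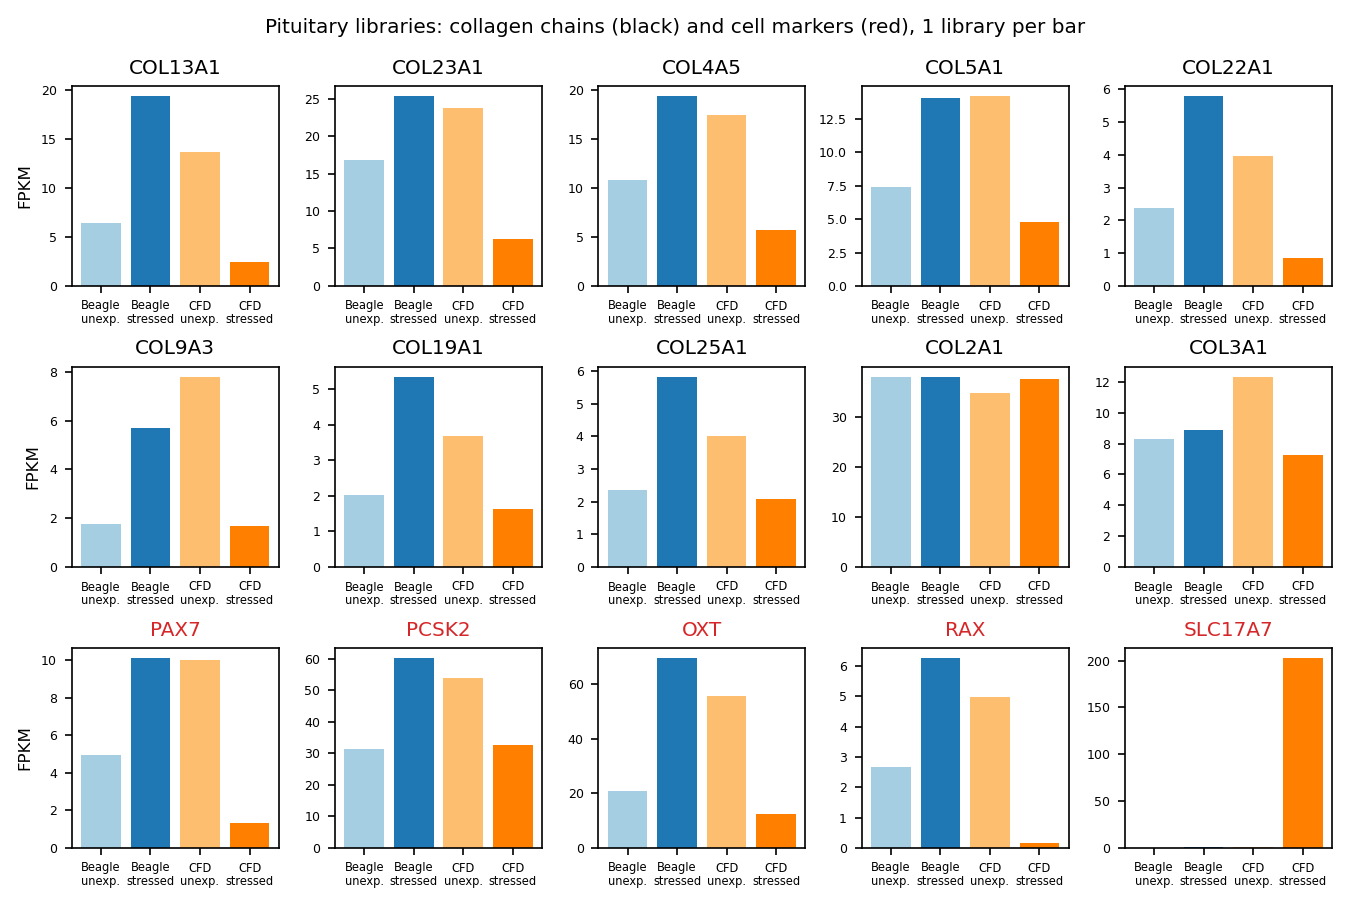
FPKM (vertical axes, from 0, scaled per panel) in the 4 pituitary libraries, 1 bar each, for 10 collagen chains (black titles) and 5 markers (red titles). COL13A1, COL23A1, COL4A5 and COL22A1 are highest in the stressed Beagle and lowest in the stressed Chinese Field Dog (CFD), as OXT, RAX and PAX7 are, PCSK2 is lowest in the unexposed Beagle, COL2A1 is level, and SLC17A7, a forebrain neuron marker, stands out in the stressed Chinese Field Dog.

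Between the breeds, unexposed pituitaries differed 2-fold in 2 of 37 collagens, where 3.43% of all genes did, 1.99% higher and 1.44% lower in the Chinese Field Dog. COL9A3 was higher in the Chinese Field Dog (1.68, read-ratio interval 1.72 to 2.63) and COL14A1 lower (-1.04, read-ratio interval -1.31 to -1.06). Between the stressed pituitaries, 12 of 36 were 2-fold lower in the Chinese Field Dog and 0 higher, where 11.1% of all genes were 2-fold different, 8.73% higher and 2.39% lower. The largest was COL13A1 (-2.59, read-ratio interval -3.36 to -2.68), followed by COL22A1 (-1.88), COL23A1 (-1.87) and COL4A5 (-1.61). The other 8 were COL5A1, COL9A1, COL9A3, COL19A1, COL24A1, COL4A6, COL25A1 and COL27A1, from -1.38 to -1.13. That comparison includes the library with forebrain markers and cannot be made without it. In it 32 of 36 collagens lay below 0, where 53.9% of all genes did. In the unexposed pair 21 of 37 lay above 0, where 47.2% of all genes did.

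In the adrenal cortex, collagens were mostly lower in the Chinese Field Dog, by small amounts. In the unexposed pair 29 of 32 collagens lay below 0, where 55.6% of all genes did. Their median was -0.31, against -0.03 over all genes. In the stressed pair 25 of 31 lay below 0, where 51% of all genes did, with a median of -0.37 against -0.01. Of 31 chains counted in both pairs, 22 were lower in the Chinese Field Dog in both and 0 higher in both, where 32.3% of all genes were lower in both and 25.9% higher in both. Few differed 2-fold: COL26A1 (-1.31, read-ratio interval -2.14 to -1.32) and COL5A1 (-1.03, read-ratio interval -1.23 to -0.98) unexposed, where 4.34% of all genes did (1.64% higher, 2.7% lower), and COL24A1 (-1.31, read-ratio interval -1.93 to -1.39) and COL22A1 (-1.24, read-ratio interval -1.50 to -1.23) stressed, where 3% did (1.67% higher, 1.33% lower). All 9 basement membrane chains had a negative difference in the unexposed pair, from -0.77 for COL15A1 to -0.07 for COL4A1, and COL1A1, COL3A1, COL5A1, COL8A1, COL13A1 and COL21A1 were the 6 chains above 0 in the stressed pair. None of these differences passed limma's adjusted threshold.

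Other markers also differed between the adrenal libraries of the breeds. Their counts stand against 55.6% of all genes lower in the unexposed pair and 51% in the stressed pair. Medulla markers were lower in the Chinese Field Dog in 8 of 8 under both exposures, with the sums given above, and Schwann cell markers in 4 of 4, with sums of 40.5, 20.8, 21.2 and 16.7 FPKM. Fibroblast markers were lower in 7 of 10 unexposed and 5 of 10 stressed, and endothelial markers in 11 of 13 and 7 of 13. Adipocyte markers summed to 102, 21.7, 49.02 and 80.98 FPKM and did not keep one direction. Basement membrane partners were lower in 12 of 14 and 11 of 13, and small leucine-rich and fibril partners in 12 of 14 and 10 of 14. Their part in the collagen differences was not tested.

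**Figure D5:**
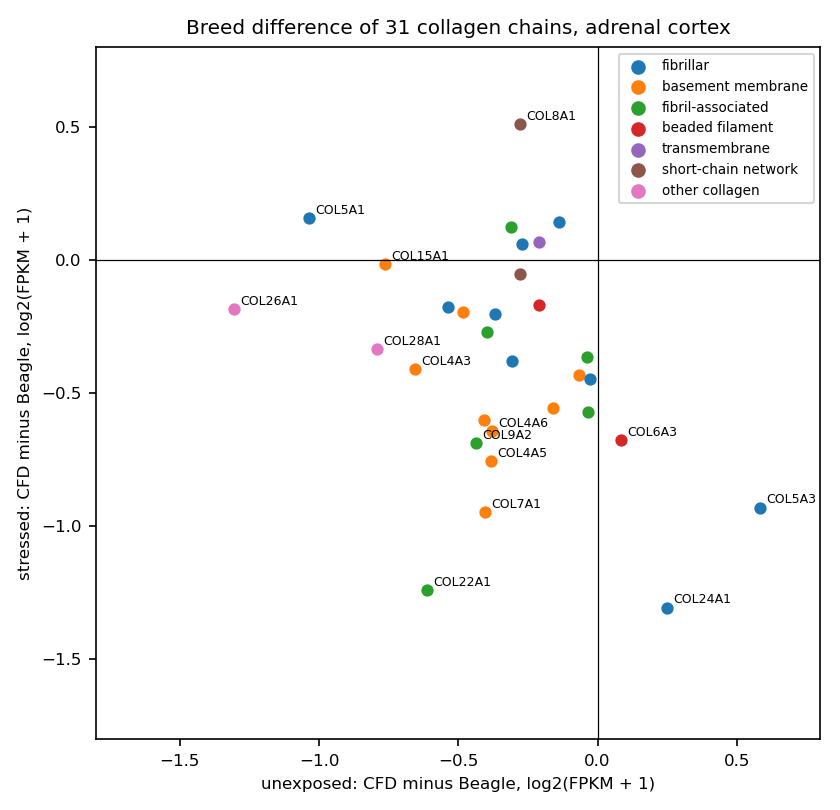
Chinese Field Dog (CFD) minus Beagle in log2(FPKM + 1) for 31 collagen chains in the adrenal cortex, unexposed libraries on the horizontal and stressed libraries on the vertical axis, coloured by class. The lower left corner, lower in the Chinese Field Dog in both, holds 22 chains, and the upper right corner holds 0.

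Between stressed and unexposed adrenal libraries, most collagens stayed within 2-fold. In the Beagle, 0 of 33 were 2-fold different, where 3.28% of all genes were (0.83% higher, 2.45% lower), and the largest difference was that of COL5A1 (-0.91). In the Chinese Field Dog, 2 of 30 were 2-fold lower, COL5A3 (-1.58, read-ratio interval -1.90 to -1.59) and COL24A1 (-1.38, read-ratio interval -2.01 to -1.48), where 2.02% of all genes were 2-fold different, 0.99% higher and 1.03% lower. Over the 30 chains counted in both breeds, 3 were higher in both, 8 lower in both and 19 differed in sign, and among all genes 27.1% were higher in both and 24.6% lower in both. The collagen medians, -0.07 and -0.08 for Beagle and Chinese Field Dog, were close to 0. The type I and III chains stayed near their unexposed level, with COL1A2 at 0.07 and -0.00 and COL3A1 at -0.16 and 0.17 for Beagle and Chinese Field Dog.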

How the data were processed

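Per the labels' protocols, mRNA libraries came from the TruSeq RNA kit. Reads were aligned with TopHat to CanFam3.1, per the submitters' processing notes. The counting program and annotation are not given in the sources used here. The deposited FPKM values are the authors' levels per length and depth. The deposited count columns are the authors' scaled signal, read counts divided by 1 factor per library, from which 98.7% to 99.1% of values came out as whole reads within 0.02. The factor is near 1 for 2 libraries, adrenal cortex of the stressed Beagle and pituitary of the stressed Chinese Field Dog, whose reads are therefore near and not exact. The authors' deposited p-value and FDR columns were used only where the authors' table is named, and the authors' deposited log2 ratio columns were not used. Repeats of a library's columns across tables matched exactly (16 of 16).

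Genes whose FPKM averaged 1 or more over the 8 libraries were tested on log2(FPKM + 1) with limma 3.58.1 (eBayes with trend) in R 4.3.3, with Benjamini-Hochberg adjustment over all genes and a threshold of 0.05. GH1 and RRBP1, 2 genes with a failed estimate in 1 library, were left out of the fits. Alternatives used edgeR 4.0.16 and DESeq2 1.42.0 on recovered reads, another pseudocount, other filters, median-centred libraries, no trend, a block and each library left out. Class shares without the library with forebrain markers, and collagen as a share of reads and of FPKM, were added after seeing the data. The fitting code was tested on simulated data. Python 3.11.15 was used for tables. Every chain with a mean of 5 FPKM, past the threshold in a fit, or 2-fold in a pair with 100 reads in 1 library is given in every library, other chains by range, and from each pathway list the 2 genes with the lowest tissue p, except that 2 list genes are not reported here. Members and lists were chosen with earlier results of these data known. With 1 library per group, and no statement that libraries are separate animals, p-values reflect nothing but the spread among these libraries, which may be technical. In the tissue fit that spread also takes in breed, exposure and the library with forebrain markers.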

Additional observations from a re-analysis of the deposited data

Results flagged for a closer look

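In 5 of the 76 groups of 4 libraries looked at, 1 library lay far from the other 3 by Dixon's test, where chance gives about 1 in 20. COL6A3 was low in the stressed Chinese Field Dog in both tissues, at 7.61 FPKM in the adrenal cortex and 2.39 FPKM in the pituitary. COL12A1 was low in the stressed Chinese Field Dog pituitary, at 1.72 FPKM, the library with forebrain markers. COL2A1 was low in the unexposed Chinese Field Dog pituitary, at 34.6 FPKM against 37.5 FPKM or more in the others. COL25A1 in the stressed Beagle adrenal cortex, at 0.0457 FPKM, is 1 read against 0 in the other adrenal libraries.

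In the pituitary, 8 of 36 chains differed by at least 0.5 on the log2(FPKM + 1) scale with stress in opposite directions by breed, with at least 1 of the 2 pairs 2-fold different and at 100 reads or more. Under the same rule 0.99% of all genes did, 0.57% with the collagens' pair of directions. The difference between breeds was not tested, and every Chinese Field Dog value rests on the library with 641 FPKM of forebrain neuron markers. COL13A1 was at 1.47 (Beagle) and -2.11 (Chinese Field Dog), COL23A1 at 0.57 and -1.78, and COL25A1 at 1.03 and -0.71, all transmembrane chains. COL9A3 was at 1.29 and -1.72, COL22A1 at 1.01 and -1.42, and COL19A1 at 1.07 and -0.83, all fibril-associated chains. COL4A5 was at 0.78 and -1.46, and COL5A1 at 0.84 and -1.40.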

How the results depend on the processing

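Of the 31 collagens called between tissues, 29 kept direction and call in every alternative; COL27A1 and COL28A1 lost the call in some. Between 29 and 32 collagens were called when each library was left out in turn, and 8243 to 9351 genes. Among the 7 uncalled chains, COL14A1 and COL5A1 changed sign with median-centred libraries, to -0.057 and -0.0506. With single libraries left out, COL14A1 ranged from -0.193 to 0.170, COL5A1 from -0.164 to 0.303 and COL24A1 from -0.459 to 0.0885. The cause was not tested. Replicate numbers pair no libraries, because every group has only replicate 1. With breed and exposure as a block in place of replicate numbers, 8770 genes and 32 collagens were called between tissues, COL5A3 among them (adjusted p = 0.0427). The deviations of same-block libraries correlated at -0.027, 0.171, 0.126 and 0.002, above 0.1 in 2 of 4 blocks. The main fit did not use the blocks as pairs, and whether both glands came from the same dogs is not known.

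Counts of genes called for stress and breed were small and changed with the setting, against 1 for stress in the pituitary and in the adrenal cortex, 2 for breed in the pituitary, 4 for breed in the adrenal cortex, and 1 and 5 for the stress and breed differences between tissues. Called genes for stress in the pituitary were 2 with pseudocount 0.1, 0 with at least 50 reads, 0 with edgeR, 64 with DESeq2 and 0 to 102 when a library was left out. For stress in the adrenal cortex they were 0, 0 (also 0 without a filter), 0, 11 and 0 to 3. For breed in the pituitary they were 4 with pseudocount 0.1, 220 with DESeq2 and 4 to 132 with a library left out, and DESeq2 called 1 collagen, COL14A1. For breed in the adrenal cortex they were 0 with at least 50 reads, 0 with edgeR, 97 with DESeq2 and 0 to 28. For the stress difference between tissues they were 0 with pseudocount 0.1, without a filter, with at least 50 reads and with edgeR, 2 with median-centred libraries, 2 without trend, 27 with DESeq2 and 0 to 40. For the breed difference between tissues they were 0 with at least 50 reads, 0 with edgeR, 63 with DESeq2 and 0 to 50. No library left out gave a collagen call for stress or breed.

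Counts of 2-fold genes in pairs moved with pseudocount 0.1 to 450 (stress, Chinese Field Dog adrenal cortex), 682 (breed, stressed adrenal cortex, with 4 collagens), 546 (stress, Beagle pituitary) and 799 (breed, unexposed pituitary, with 4 collagens), and with at least 50 reads to 269 (stress, Beagle adrenal cortex), 121, 224, 184 and 310. By reads not corrected for length, basement membrane chains held 19.96% of adrenal and fibrillar chains 61.2% of pituitary collagen. Depth limits the 5 chains below the filter, which had 3 to 117 reads per library.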
